A study of Mus musculus with 36 samples.

Results

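Genes that mark cells of the oligodendrocyte lineage were followed in RNA-seq of cultured mouse astrocytes. The 8 genes were Pdgfra, Cspg4, Olig1, Olig2, Sox10, Gpr17, Cnp and Mbp, and a gene belonged to the group when the annotation of the astrocyte table gave one of these symbols. All 8 had a row among the 14551 genes of that table, and 7 of them, without Gpr17, passed the filter on low values that left 13842 genes for testing. The 12 astrocyte libraries came from C57BL/6 mice of 2 to 4 days. Their brains were pooled and grown as mixed glia for 12 days. Microglia were then removed by selection for CD11b, and astrocytes were taken from the remaining cells by a positive selection. They rested for 24 to 48 h and were treated for 4 h.

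The 4 treatments, with 3 libraries each, were the vehicle DMSO (written DSMO in the astrocyte labels), Nec-1s, TNF/Smac/zVAD and TNF/Smac/zVAD/Nec-1s. The latter pair is shortened to T/S/Z and T/S/Z/N. TNF with a Smac mimetic and the pan-caspase inhibitor zVAD is a stimulus that activates the kinase RIPK1 and leads to necroptosis in cells with the full machinery. Nec-1s is a small molecule inhibitor of that kinase. The study asked which part of the astrocyte response to T/S/Z depends on RIPK1 kinase activity, so each gene was compared with and without Nec-1s. The CD11b-selected microglia, used below only for levels, were treated for 4 h in the same ways and also with TNF/5z-7 and TNF/5z-7/Nec-1s, with 4 libraries each. In these, shortened to T/5z and T/5z/N, TNF is combined with 5z-7, an inhibitor of the kinase TAK1. The study's section on statistics describes its replicates in general as biological, as single animals or cells from separate litters, while the labels give no litter for a library. In the main fit, p-values weigh a change against the spread left between libraries after treatment and replicate number, moderated across genes. Whether that spread is one between litters cannot be told.

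Oligodendrocyte precursor cells arise from neural progenitors that express the transcription factors Olig1 and Olig2, and they divide in response to platelet-derived growth factor through its receptor PDGFRA. As they commit, precursors lose PDGFRA and the proteoglycan NG2, the product of Cspg4, pass through a stage marked by the receptor GPR17, and then switch on myelin genes under SOX10. Precursors are a regular companion of astrocytes in mixed glial cultures of the newborn brain. Several of the marker genes are not private to the lineage, since Pdgfra is also expressed by fibroblasts, Cspg4 by pericytes and some activated microglia, and Olig2 by a subset of astrocytes.

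Per the deposited annotation, which uses the coordinates of GRCm38, Pdgfra (ENSMUSG00000029231) lies on chromosome 5 from 75152292 to 75198215, and Cspg4 (ENSMUSG00000032911) on chromosome 9 from 56865033 to 56899870. Olig2 (ENSMUSG00000039830, 91225457 to 91228677) and Olig1 (ENSMUSG00000046160, 91269772 to 91271933) are neighbours on chromosome 16. Sox10 (ENSMUSG00000033006) is on chromosome 15 from 79154908 to 79165240, and Cnp (ENSMUSG00000006782) on chromosome 11 from 100574904 to 100591729. The coordinates are those of whole genes.

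Promoter sequences from RefSeq (GRCm38.p6, 250 bases before to 50 bases after the start of the gene) were at hand for 4 members, Pdgfra, Cspg4, Cnp and Olig2. They are shown for the receptor and the proteoglycan that mark precursors, whose levels with T/S/Z lay on opposite sides of DMSO, and for Cnp, the most abundant member. Each is printed 5′ to 3′ on the plus strand, with positions counted from 1 at its first base, and capitals mark matches on either strand to the kappaB consensus, bound by NF-kappaB factors downstream of TNF, or to the E-box CANNTG, bound by OLIG and other helix-loop-helix factors.
Pdgfra, chr5:75152001-75152300: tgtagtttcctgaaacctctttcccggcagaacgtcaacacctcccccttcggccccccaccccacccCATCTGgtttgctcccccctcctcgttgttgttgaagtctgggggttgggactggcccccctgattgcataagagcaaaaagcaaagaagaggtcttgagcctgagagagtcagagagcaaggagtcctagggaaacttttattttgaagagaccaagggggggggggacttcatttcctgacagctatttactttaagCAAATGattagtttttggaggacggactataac
Cspg4, chr9:56864854-56865153: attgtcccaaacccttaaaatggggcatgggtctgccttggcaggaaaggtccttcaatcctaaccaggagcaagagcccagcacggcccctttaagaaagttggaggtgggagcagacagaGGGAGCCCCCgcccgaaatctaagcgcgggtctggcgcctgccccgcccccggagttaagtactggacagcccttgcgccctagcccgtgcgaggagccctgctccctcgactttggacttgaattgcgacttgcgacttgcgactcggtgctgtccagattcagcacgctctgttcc
Cnp, chr11:100574689-100574988: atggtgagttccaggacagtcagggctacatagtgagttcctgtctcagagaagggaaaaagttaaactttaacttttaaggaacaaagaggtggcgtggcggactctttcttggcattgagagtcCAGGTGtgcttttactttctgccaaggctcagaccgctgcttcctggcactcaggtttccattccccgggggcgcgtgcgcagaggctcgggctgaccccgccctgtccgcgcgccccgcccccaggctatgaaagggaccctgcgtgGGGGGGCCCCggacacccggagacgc

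The Pdgfra window held 2 E-boxes, at positions 69 and 268, and no kappaB match. The Cspg4 window held 1 kappaB match, at position 123, and no E-box. The Cnp window held 1 E-box, at position 127, and 1 kappaB match, at position 275. The Olig2 window (chromosome 16, 91225300 to 91225599) matched neither, and had 1 TATAAA at position 243. Each of the Cspg4, Cnp and Olig2 windows held 2 copies of GGGCGG, the first of which overlapped the kappaB match in Cspg4. Of 32851 RefSeq promoters of the same length, 8.46% held the kappaB consensus, 72.3% the E-box, 13.6% TATAAA and 35.7% GGGCGG. A match says only that these letters occur in the window.

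Levels are given as deposited, as log2(FPKM + 1), where FPKM is the number of fragments corrected for exon length and sequencing depth. In DMSO the order was Cnp, Olig1, Olig2, Pdgfra, Mbp, Cspg4, Sox10 and Gpr17. Cnp, which encodes an enzyme of the myelin sheath that also marks committed precursors, had a mean FPKM of 84.5, above 93.2% of the genes in the table. Olig1 followed at 68.3 FPKM and Olig2 at 17.8 FPKM. The remaining members were low, with 6.41 FPKM for Pdgfra, 3.33 for Mbp, 2.54 for Cspg4, 1.63 for Sox10 and 0.811 for Gpr17. The DMSO libraries of neighbours in this order did not overlap, except for Mbp (1.87 to 2.36 log2 units) and Cspg4 (1.71 to 1.9). Levels of different genes were not tested against each other.

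The low members rested on fewer reads. The steps between low values put the apparent depth at 21.3 to 22.4 M units per library, where a unit is a read or a read pair, which could not be settled. On that footing Gpr17 had 58.7 to 126 units per library and Sox10 94.3 to 178, against 4618 to 7174 for Cnp. Depth differed little between treatments, and no library stood apart in it.

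**Figure D1:**
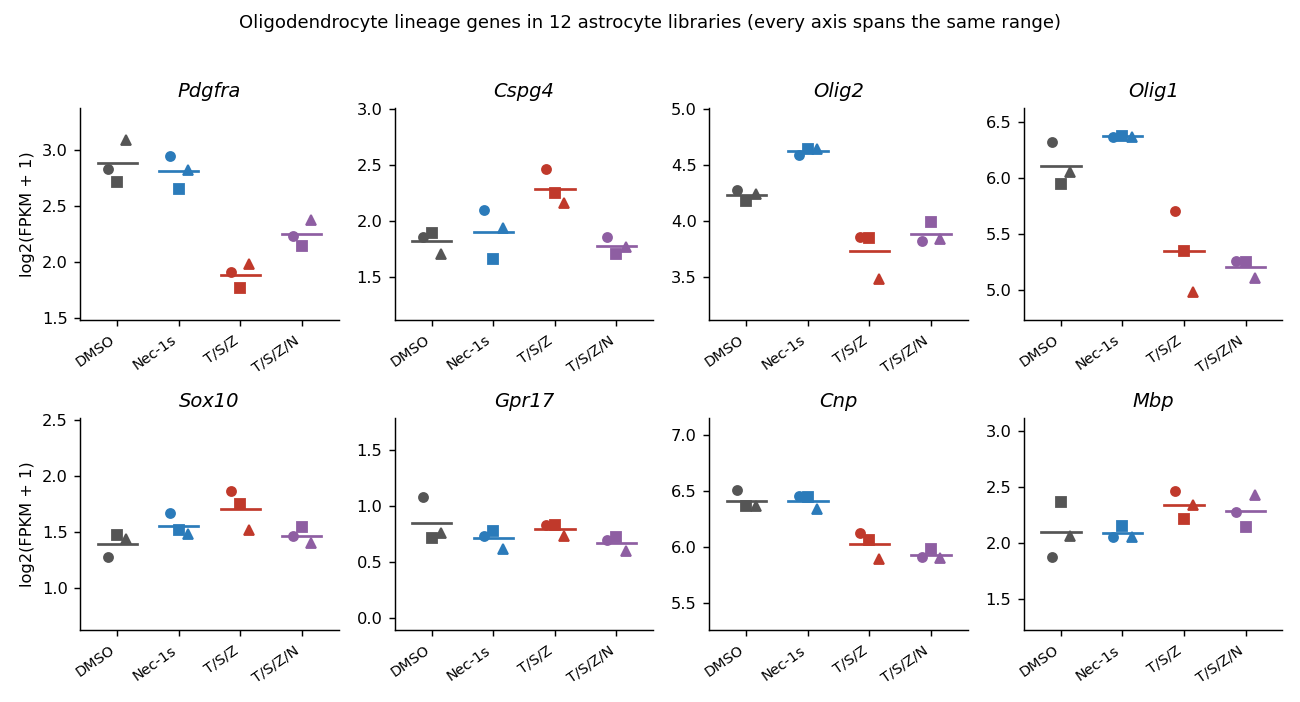
Level of each of the 8 genes, as log2(FPKM + 1), in the 12 astrocyte libraries by treatment. Points are libraries (circle, square and triangle for replicates 1, 2 and 3), bars are means of 3, and every vertical axis spans the same number of log2 units. Pdgfra, Olig1, Olig2 and Cnp are lower in every T/S/Z and T/S/Z/N library than in any DMSO library, whereas Cspg4 is higher only in T/S/Z.

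The surface markers of precursors, Pdgfra and Cspg4, lay on opposite sides of DMSO with T/S/Z. Pdgfra, the receptor for PDGF-A that drives precursor division, stood at 2.83, 2.72 and 3.09 log2 units in the DMSO libraries, at 2.95, 2.65 and 2.82 with Nec-1s alone and at 1.91, 1.76 and 1.98 in the T/S/Z libraries. The T/S/Z libraries lay below all others. The change was -0.997 on the log2 scale (SE 0.10, adjusted p = 0.000364, limma with Benjamini-Hochberg adjustment over all 13842 genes), a level 2.00-fold lower. Cspg4, which encodes the proteoglycan NG2, had 1.86, 1.9 and 1.71 log2 units in DMSO, 2.10, 1.66 and 1.94 with Nec-1s alone and 2.46, 2.25 and 2.16 in T/S/Z, so that every T/S/Z library lay above every other. Its difference from DMSO of +0.47 (SE 0.106, adjusted p = 0.0121) was under the 1.5-fold required for a call, but exceeded it under quantile normalization (+0.62) and with a smaller pseudocount of 0.1 (+0.60).

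With Nec-1s added to T/S/Z, both genes lay nearer to their DMSO levels. Pdgfra was at 2.23, 2.14 and 2.37 log2 units in T/S/Z/N, above all T/S/Z libraries and below all DMSO libraries. The difference from T/S/Z, +0.36 (SE 0.0945), had an adjusted p of 0.0609, while the difference from DMSO, -0.63 (SE 0.0869), passed the threshold with an adjusted p of 0.00419 but was under 1.5-fold with quantile normalization (-0.55) or centring of each library (-0.58). Cspg4 was at 1.86, 1.70 and 1.77 in T/S/Z/N, within the range of the DMSO libraries or just below it and under every T/S/Z library. It was 0.51 log2 units lower than in T/S/Z (difference -0.51, SE 0.10, adjusted p = 0.0296), again by less than 1.5-fold, though by more with 0.1 as the pseudocount (-0.66, adjusted p = 0.0301), and the adjusted p was over 0.05 without replicate 1 or 2.

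Of the transcription factors of the lineage, Olig1 fell with T/S/Z. It had 6.32, 5.95 and 6.05 log2 units in DMSO and 5.70, 5.35 and 4.97 in T/S/Z. The change was -0.76 (SE 0.107, adjusted p = 0.00166), a level 1.70-fold lower, and the T/S/Z libraries spread over a wider range than any other group of this gene. Olig2, its neighbour on chromosome 16, had 4.28, 4.18 and 4.24 in DMSO and 3.86, 3.84 and 3.47 in T/S/Z. Its difference of -0.51 (SE 0.105, adjusted p = 0.00878) was 1.42-fold and so not a call, though it became one without replicate 2 (-0.59), while without replicate 1 its adjusted p was 0.0941. Sox10, which activates myelin genes, had 1.27, 1.47 and 1.44 in DMSO and 1.86, 1.75 and 1.51 in T/S/Z. Those groups did not overlap either, but the difference of +0.32 (SE 0.129) had an adjusted p of 0.0891. Sox10 was at 1.67, 1.52 and 1.48 with Nec-1s alone and at 1.46, 1.54 and 1.4 in T/S/Z/N.

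Addition of Nec-1s did not bring Olig1 or Olig2 back to the levels of DMSO. In T/S/Z/N, Olig1 was at 5.26, 5.24 and 5.10 and Olig2 at 3.81, 3.98 and 3.84, and both overlapped with T/S/Z. The difference between T/S/Z/N and T/S/Z was -0.14 for Olig1 (95% interval -0.42 to 0.14, adjusted p = 0.454) and +0.15 for Olig2 (-0.09 to 0.40, adjusted p = 0.364). Against DMSO, Olig1 fell by 0.90 in T/S/Z/N (SE 0.0844, adjusted p = 0.00101), and Olig2 differed by -0.35 (SE 0.084, adjusted p = 0.0269).

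Nec-1s alone gave the highest levels of both Olig genes. Olig2 was at 4.59, 4.65 and 4.64 log2 units in the Nec-1s libraries, all above the DMSO libraries, and Olig1 at 6.37, 6.38 and 6.37, also above all of them. The differences from DMSO were +0.39 for Olig2 (SE 0.074, adjusted p = 0.606) and +0.27 for Olig1 (SE 0.0838, adjusted p = 0.85), so neither passed the test across all genes. When T/S/Z/N was set against Nec-1s alone, which shares no library with the comparison of T/S/Z and DMSO, Olig1 fell by 1.17 (SE 0.0563, adjusted p = 3.53e-05) and Olig2 by 0.75 (SE 0.0618, adjusted p = 0.000365).

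Of the myelin genes and the gene of the intermediate stage, Cnp was lower with T/S/Z, by less than 1.5-fold. It had 6.51, 6.37 and 6.37 log2 units in DMSO, 6.13, 6.06 and 5.90 in T/S/Z and 5.91, 5.98 and 5.90 in T/S/Z/N. Every stimulated library lay below every unstimulated one, and the differences from DMSO were -0.39 (SE 0.0717, adjusted p = 0.00558) for T/S/Z and -0.48 (SE 0.0691, adjusted p = 0.00481) for T/S/Z/N, both under 1.5-fold. With Nec-1s alone Cnp was at 6.46, 6.45 and 6.34, a difference from DMSO of 0.00 (95% interval -0.15 to 0.15).

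Mbp (ENSMUSG00000041607), which encodes myelin basic protein and, from an upstream start of the same locus, golli proteins of other cell types, had 1.87, 2.36 and 2.07 log2 units in DMSO and 2.46, 2.22 and 2.34 in T/S/Z, beside 2.05, 2.15 and 2.05 with Nec-1s alone and 2.27, 2.15 and 2.42 in T/S/Z/N. The T/S/Z and DMSO libraries overlapped, and their difference of +0.24 (95% interval -0.11 to 0.59) had an adjusted p of 0.235. Gpr17 (ENSMUSG00000052229), a receptor of committed precursors, was under 1 log2 unit in 11 of the 12 libraries and was not tested. Its values were 1.08, 0.71 and 0.75 in DMSO, 0.74, 0.78 and 0.62 in Nec-1s, 0.83, 0.83 and 0.73 in T/S/Z and 0.70, 0.72 and 0.59 in T/S/Z/N. Stimulated and unstimulated groups overlapped.

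**Figure D2:**
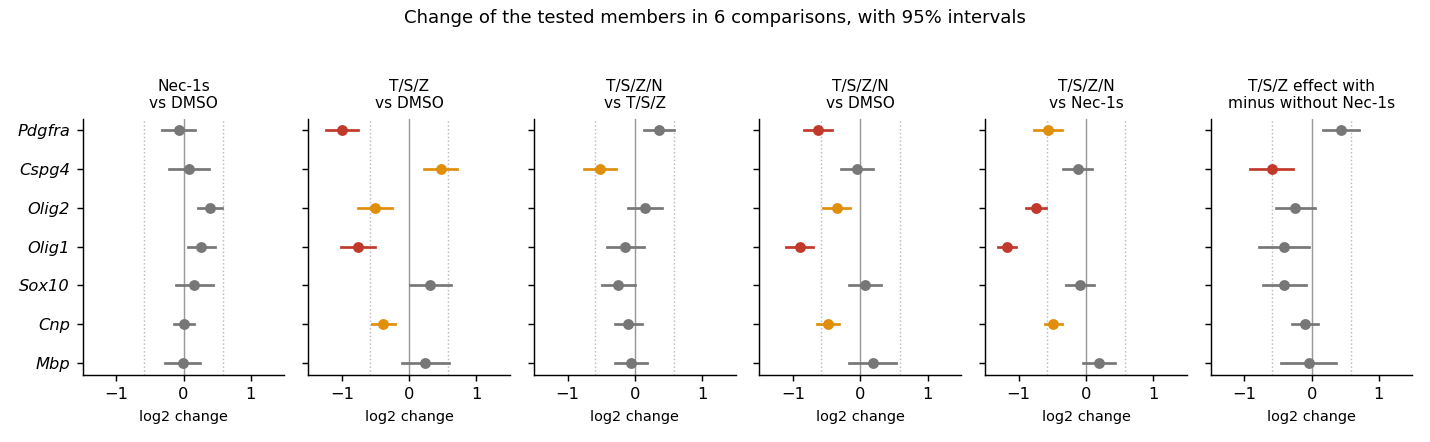
Log2 change of the 7 tested genes (rows) in 6 comparisons (panels), with the 95% interval of the limma fit as a line. Red marks genes past both thresholds, orange those with an adjusted p under 0.05 and a change under 1.5-fold, grey the rest, and dotted lines stand at a 1.5-fold change. Olig1 is red in the 3 panels that set a stimulated group against DMSO or Nec-1s, and Cspg4 is red only in the last panel.

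A gene was counted as called when its fold change exceeded 1.5 and its adjusted p was under 0.05. T/S/Z against DMSO called 2 of the 7 tested members, Pdgfra and Olig1, where 15.4% of all genes were called. At any fold change, 5 of 7 had an adjusted p under 0.05 against 40.4% of all genes, 4 lower and 1, Cspg4, higher, and without replicate 1 this count was 2, Pdgfra (adjusted p = 0.0248) and Olig1 (0.0498), with Cnp at 0.0777, Olig2 at 0.0941 and Cspg4 at 0.0983. It was 6 with quantile normalization or with all 12 libraries in one fit. For T/S/Z/N against T/S/Z the count was 0 of 7 (3.1% of all genes), with 1 of 7 at any fold change (7.82%). An unadjusted limma p under 0.05 was found for 2 of 7, beside 4134 of all 13842 genes. The 1 of 7 was 2 with all 12 libraries in one fit and 0 without replicate 1 or 2 or with the stricter filter. T/S/Z/N against DMSO called Olig1 and Pdgfra (9.08% of all genes), and 4 of 7 at any fold change (27.0%). T/S/Z/N against Nec-1s called Olig1 and Olig2 (8.54%), with 4 of 7 at any fold change (36.6%). Nec-1s against DMSO called none, where 0.0144% of all genes were called at either rule. There 2 of 7 had an unadjusted limma p under 0.05, beside 790 of all 13842 genes. With an ordinary linear model, whose variance is not shared between genes, 0 of 7 were called in any comparison, and that model called few genes at all, between 0 and 281 of 13842 (2.03%, for T/S/Z against DMSO). With 7 genes and such backgrounds, the counts are not read as a property of the group.

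The median change of the 7 members was -0.39 with T/S/Z, beside -0.11 for all tested genes. Because the typical gene moved by this much, other scalings bear on the directions. With each library centred on its median, the median of all genes was -0.05 and the members' changes were -0.94 for Pdgfra, -0.71 for Olig1, -0.45 for Olig2, -0.33 for Cnp, +0.52 for Cspg4, +0.37 for Sox10 and +0.30 for Mbp. All 7 kept their sign under that scaling and under quantile normalization. Over all genes, 885 were called higher and 1245 lower with T/S/Z, and 999 and 917 with quantile normalization. For T/S/Z/N against DMSO these counts were 604 and 653, and 686 and 474 with quantile normalization.

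Whether Nec-1s altered the effect of T/S/Z was tested as the difference between T/S/Z/N against Nec-1s and T/S/Z against DMSO, over all 12 libraries. Cspg4 was the 1 member called, where 3.37% of all genes were called, and also the only one with an adjusted p under 0.05 (5.69% of all genes), where 0.1 as the pseudocount gave 2. Its effect of T/S/Z was +0.47 without the inhibitor and -0.12 with it, a difference of -0.59 (SE 0.145, adjusted p = 0.0409). This call sat close to the threshold. The adjusted p was 0.326, 0.107 and 0.104 without replicates 1, 2 and 3, and 0.0596 without the replicate block, and the difference was under 1.5-fold with 5 added before the log.

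For Pdgfra the difference of effects was +0.44 (SE 0.121, adjusted p = 0.0589), from -0.997 without Nec-1s to -0.56 with it. Olig1 went the other way, with -0.76 without and -1.17 with the inhibitor, a difference of -0.41 (SE 0.167, adjusted p = 0.151). For Sox10 the difference was -0.41 (adjusted p = 0.112), for Olig2 -0.24 (95% interval -0.54 to 0.05), for Cnp -0.10 (-0.29 to 0.10) and for Mbp -0.05 (-0.45 to 0.36).

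**Figure D3:**
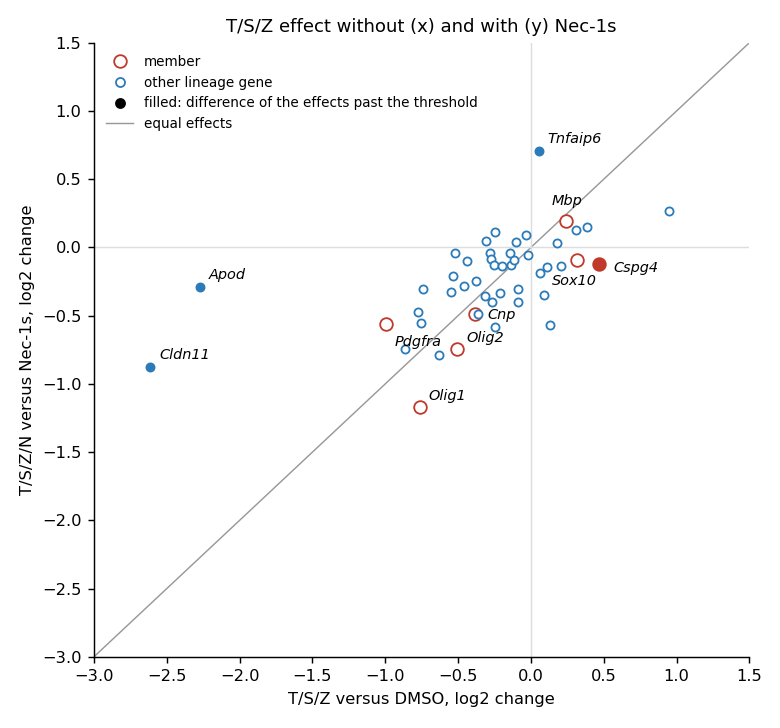
Log2 change with T/S/Z in the absence of Nec-1s (horizontal) against that in its presence (vertical) for 7 members (red, large) and other tested lineage genes (blue). The axes share no library, the diagonal marks equal effects, and filled points passed the test of the difference. Pdgfra, Apod and Cldn11 lie above the diagonal, nearer to 0 with the inhibitor, while Olig1, Olig2, Cnp and Cspg4 lie below it.

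The other lineage genes were taken from 3 lists that follow the lineage from precursor to myelin, 65 genes in all, of which 49 had a row here and 44 were tested. T/S/Z against DMSO called 8 of the 44 lower and 1 higher, beside the 15.4% of all genes, with a median change of -0.25. Nec-1s against DMSO called 0 of 44, with 3 at an unadjusted limma p under 0.05, beside 790 of all 13842 genes.

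Of 16 tested precursor genes, 2 fell with T/S/Z, among them Sox5. Sox5, a partner of SOX10 in precursors, fell by 0.78 (SE 0.112, adjusted p = 0.00189) and differed by +0.13 with Nec-1s (adjusted p = 0.484). Ptprz1, a receptor phosphatase of precursors and astrocytes and the most abundant of the list, had a difference of -0.25 (adjusted p = 0.0645). The list's median was -0.12, close to that of all genes.

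Among 11 tested genes of committed and premyelinating cells, Tcf7l2 and Bmp4 fell and Nkx6-2 rose. Tcf7l2, a Wnt effector of newly formed oligodendrocytes, changed by -0.75 (SE 0.111, adjusted p = 0.00208), and Bmp4, a ligand secreted by committed precursors, by -0.63 (SE 0.146, adjusted p = 0.0133). Nkx6-2, a homeobox factor of the lineage, changed by +0.94 (SE 0.145, adjusted p = 0.0024). None of the 11 was called for T/S/Z/N against T/S/Z, where 3 had an unadjusted limma p under 0.05, beside 4134 of all 13842 genes. Fabp7, a lipid-binding protein of radial glia and the most abundant gene of all 3 lists, was at 9.70 ± 0.14 log2 units (SD, n = 3) in DMSO and differed by -0.46 with T/S/Z (adjusted p = 0.0053), and Sirt2, a deacetylase of myelin, by +0.11 (adjusted p = 0.246).

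The myelin list was sparse. Of its 30 genes 19 had a row here, and the other 11 were not analysed. Every row of the table reached at least 0.995 FPKM in some library. Mag and Mobp are named here after their values were seen. Mag and Mobp, which encode structural proteins of compact or adjacent myelin, had mean FPKM of 0.585 and 0.751 in DMSO, below the filter. Of 17 tested, 4 fell with T/S/Z. Cldn11, a tight junction protein of myelin that is also expressed by meningeal fibroblasts, was at 4.25, 4.41 and 4.22 in DMSO and 1.87, 1.75 and 1.42 in T/S/Z, a change of -2.61 (SE 0.11, adjusted p = 6.33e-06). Apod, a lipocalin of oligodendrocytes and fibroblasts, fell by 2.27 (SE 0.0909, adjusted p = 4.9e-06), the septin gene Sept4 by 0.86 (adjusted p = 0.000342) and the lysophosphatidic acid receptor gene Lpar1 by 0.74 (adjusted p = 0.000394).

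Some of these genes were higher when Nec-1s was added. Between T/S/Z and T/S/Z/N, Apod rose by 1.87 (SE 0.0966, adjusted p = 0.000148), Cldn11 by 1.78 (SE 0.118, adjusted p = 0.000407) and Evi2a, a membrane protein gene of the lineage, by 0.63 (SE 0.102, adjusted p = 0.0165). Sept4 was not called in that comparison (-0.12, adjusted p = 0.41). The abundant Cryab, a small heat shock protein, and Plekhb1 differed by -0.27 (adjusted p = 0.025) and -0.21 (adjusted p = 0.0554) with T/S/Z. T/S/Z/N against DMSO called 4 of the 44 genes lower, beside 9.08% of all genes in both directions. They were Sept4 (-0.98), Bmp4 (-0.84), Cldn11 (-0.84) and Sox5 (-0.65). T/S/Z/N against Nec-1s alone called 3 lower, Cldn11 (-0.87), Bmp4 (-0.79) and Sept4 (-0.75), and 1 higher, Tnfaip6, beside 8.54% of all genes. Both counts are not read as a property of the lists. The difference of effects with and without Nec-1s was called for 4 of the 44 genes, beside 3.37% of all genes. All were in the positive direction, among them Apod (+1.99), Cldn11 (+1.74) and Tnfaip6 (+0.66). Tnfaip6, an inflammatory hyaluronan-binding protein gene named here after its values were seen, had a difference of +0.05 without Nec-1s and +0.71 with it.

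Beside Pdgfra, 5 ligand and receptor genes of the PDGF family were tested. All 5 were called for T/S/Z against DMSO, 2 higher and 3 lower, where 15.4% of all genes were called. Pdgfb, a ligand for both PDGF receptors, was at 3.80, 3.29 and 3.36 log2 units in DMSO and 7.34, 7.16 and 7.01 in T/S/Z, a rise of 3.69 (SE 0.0858, adjusted p = 3.5e-07). Pdgfa, the main mitogen of precursors, rose by 0.75 (SE 0.0704, adjusted p = 0.00027). Pdgfc fell by 1.20, Pdgfd by 0.63 and the receptor gene Pdgfrb by 1.49 (SE 0.0972, adjusted p = 4.46e-05). With Nec-1s added to T/S/Z, Pdgfb fell by 1.08 (adjusted p = 0.00166) and Pdgfa by 0.62 (adjusted p = 0.0125), whereas Pdgfrb rose by 0.75 (adjusted p = 0.0118). Pdgfc (+0.48) and Pdgfd (+0.48) were not called there.

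Of 4 tested genes known to hold back oligodendrocyte differentiation, the inhibitors of helix-loop-helix factors Id4 and Id2 fell with T/S/Z, by 1.88 (SE 0.0782, adjusted p = 5.96e-06) and by 0.63 (SE 0.0711, adjusted p = 0.000636). Hes1, a Notch target, had a difference of -0.40 (adjusted p = 0.0372) and Lingo1 one of -0.04 (adjusted p = 0.813). Id4 rose by 0.73 with Nec-1s added to T/S/Z (adjusted p = 0.00467).

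**Figure D4:**
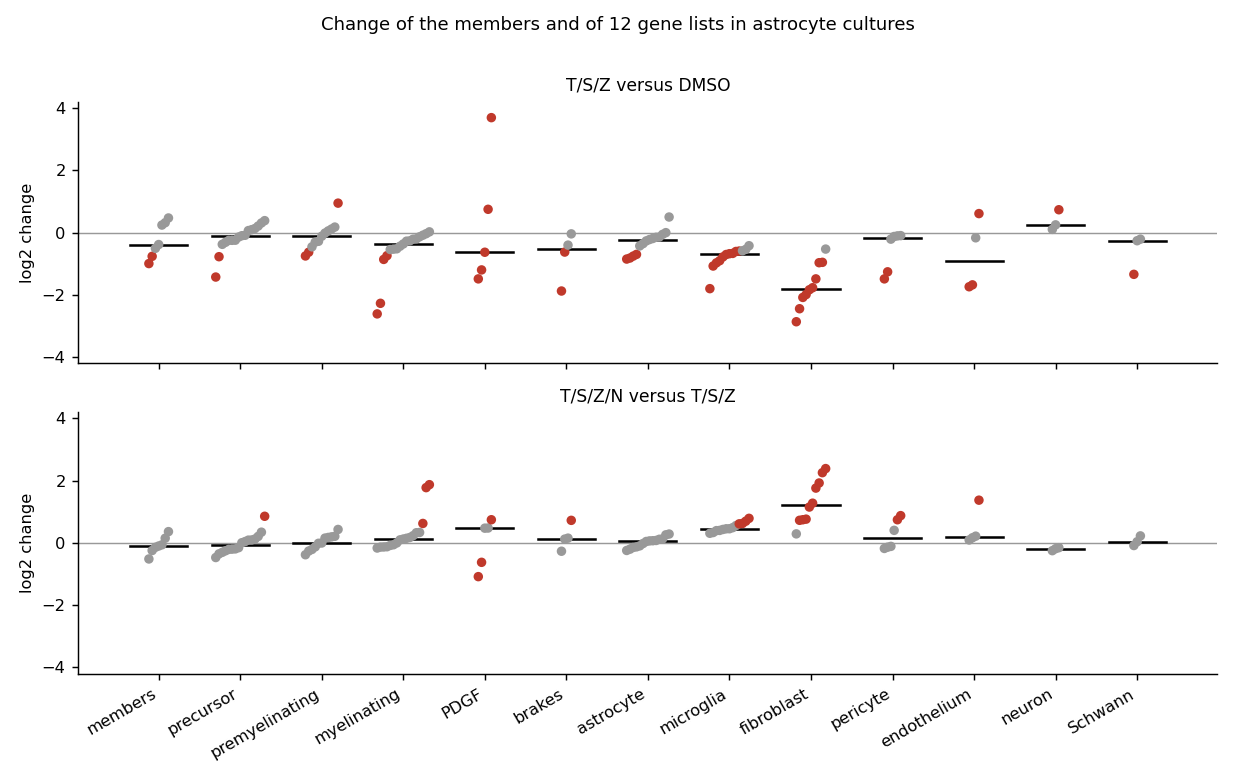
Log2 change of each tested gene (points) for T/S/Z against DMSO (top) and T/S/Z/N against T/S/Z (bottom), grouped into the 7 tested members and 12 lists, with black bars at medians. Red points passed both thresholds. The fibroblast list stands lowest with T/S/Z and highest with Nec-1s added, 2 members are red and below 0 in the top panel, and no member is red in the bottom panel.

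Markers of other cells moved with the treatments, and because these are bulk libraries, fewer cells of a type and less RNA per cell cannot be told apart. The share of all genes called was 15.4% for T/S/Z against DMSO, 3.1% for T/S/Z/N against T/S/Z and 9.08% for T/S/Z/N against DMSO. The astrocyte label was met by the data, with mean FPKM in DMSO of 2005 for Gfap, 324 for Aqp4 and 246 for Slc1a3, a filament, a water channel and a glutamate transporter of astrocytes. Of 14 astrocyte markers, 4 fell with T/S/Z and 0 rose, and their summed FPKM went from 3594 to 3682 in DMSO to 3205 to 3411 in T/S/Z and 3200 to 3227 in T/S/Z/N. Gfap differed by -0.19 (adjusted p = 0.156), Aqp4 by +0.50 (adjusted p = 0.00279) and Slc1a3 by -0.06 (adjusted p = 0.551). The 4 that fell, named here after their values were seen, were the gap junction genes Gja1 (-0.85) and Gjb6 (-0.70), the transcription factor gene Sox9 (-0.82) and the growth factor receptor gene Fgfr3 (-0.76).

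Several astrocyte markers also differed between T/S/Z/N and DMSO, with 5 of 14 called lower, namely Sox9 (-0.75), Gjb6 (-0.72), Fgfr3 (-0.64), Aldh1l1 (-0.63) and Gja1 (-0.59), and 1 higher, Aqp4 (+0.79). For T/S/Z/N against T/S/Z, 0 of 14 were called by limma, and 3 had an unadjusted p under 0.05, beside 4134 of all 13842 genes. These markers moved with the treatments beside Olig1, Olig2 and Cnp, and the part of astrocytes in the values of those genes was not tested.

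Pdgfra is also a gene of fibroblasts. Of 10 fibroblast markers, none of them at 0, 9 fell with T/S/Z (median change -1.81) and 9 rose with Nec-1s added to it (median +1.22). Their summed FPKM was 668 to 678 in DMSO, 651 to 701 in Nec-1s, 135 to 150 in T/S/Z and 533 to 537 in T/S/Z/N. The leading genes Col3a1, Dcn and Col1a1 changed by -2.87, -2.08 and -1.99 with T/S/Z. Pdgfra, too, was lowest in T/S/Z, next lowest in T/S/Z/N and higher in both unstimulated groups. The part of fibroblasts in the values of Pdgfra, Cldn11 and Apod was not tested.

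Cspg4 is also a gene of pericytes. Of 6 tested pericyte and smooth muscle genes, 2 fell with T/S/Z and 0 rose, with a summed FPKM of 1219 to 1438 in DMSO, 1087 to 1270 in T/S/Z and 1013 to 1123 in T/S/Z/N. The leading genes of the list, Tagln, Acta2 and Vtn, differed by -0.10, -0.13 and -1.26. Their mean FPKM in DMSO were 681, 596 and 8.72, so Vtn was far less abundant. The difference was below 0 for all 6 genes. The part of pericytes in the values of Cspg4 was not tested. Microglial markers fell too, in 10 of 13 tested genes, from a summed FPKM of 95.8 to 109 in DMSO to 48.7 to 60.4 in T/S/Z and 81.6 to 88.9 in T/S/Z/N, with Ctss at -0.78, C1qc at -0.67 and C1qb at -0.59. None was at 0. Of the smaller lists, 2 of 4 endothelial genes fell and 1 rose (Cdh5 -1.74, Kdr -1.68, Flt1 +0.61), 1 of 3 neuronal genes rose (Gad1 +0.73, beside Stmn2 +0.25 and Tubb3 +0.10) and 1 of 3 Schwann cell genes fell (Pmp2 -1.34, beside Prx -0.26 and Cdh19 -0.21). The summed FPKM of the Schwann cell genes was 3.71 to 8.30 over all libraries, and that of the endothelial genes 7.72 to 20.9.

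The study also treated microglia, and its microglial table gives the same 8 genes. It holds 24 libraries, 4 for each of 6 treatments, made by another provider and normalized separately, so levels are set side by side without a test. The tables also use other exon lengths for some genes, 3639 and 2357 bases for Cnp and 11931 and 8121 for Cspg4 in astrocytes and microglia, which enter FPKM. Olig1, Olig2, Pdgfra, Sox10 and Gpr17 were far lower there, with DMSO levels of 1.51%, 2.68%, 6.4%, 12.8% and 1.84% of the astrocyte FPKM. Cnp stood at 30.4%. For Gpr17 the microglial DMSO libraries lay between 0.0132 and 0.035 log2 units. Replicates 1 and 2 held the same value, 0.0186, so its share is not read as a measured level. Mbp and Cspg4 were higher in microglia, at 23.1 and 6.02 FPKM beside 3.33 and 2.54 in astrocytes. Of 12 microglial markers with at least 10 FPKM in microglia, the astrocyte libraries held between 0.349% and 2.47% of the microglial level, whereas for Mbp that share was 14.4% and for Cspg4 42.3%. The 2 microglial markers below 10 FPKM, P2ry12 and Tmem119, stood at 19.3% and 43.0%. The part of microglia in the values of Mbp and Cspg4 in the astrocyte cultures was not tested.

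**Figure D5:**
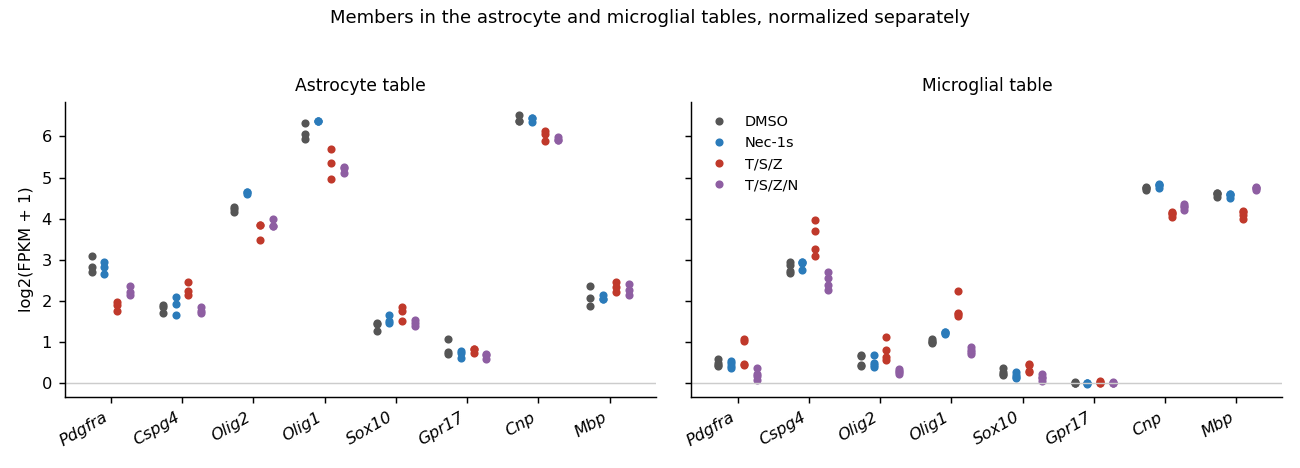
Level of the 8 genes, as log2(FPKM + 1), in astrocyte (left, 3 libraries a group) and microglial libraries (right, 4 a group) of the 4 treatments the cells share. The tables were normalized separately. Olig1, Olig2 and Cnp lead in astrocytes, and Cnp, Mbp and Cspg4 in microglia, where Cspg4 is highest with T/S/Z and lowest with T/S/Z/N.

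In both tables Cspg4 was highest with T/S/Z, and in astrocytes the other 3 groups overlapped. Its 4 microglial libraries stood at 2.73, 2.87, 2.69 and 2.94 log2 units in DMSO, at 3.26, 3.11, 3.70 and 3.98 in T/S/Z and at 2.27, 2.38, 2.70 and 2.57 in T/S/Z/N. The T/S/Z libraries lay above the DMSO libraries and the DMSO libraries above all but 1 of the T/S/Z/N libraries, which reached just into their range. With T/5z, which was given to microglia alone, Cspg4 was lower than in DMSO, with means of 2.11 and, with Nec-1s added, 1.73. Olig1, though low in microglia, was higher with T/S/Z (1.63 to 2.25 log2 units) than in DMSO (0.98 to 1.09) and T/S/Z/N (0.73 to 0.89), with no overlap, and with T/5z it was at 1.60 to 1.92, where in astrocytes it fell with T/S/Z. Mbp in microglia had a mean of 4.59 log2 units in DMSO, 4.12 in T/S/Z and 4.74 in T/S/Z/N, an order that its astrocyte values did not share. Cnp had means of 4.74, 4.12 and 4.29, lower with T/S/Z in both tables.

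Overlapping genes may add reads to some members. The annotation marks Pdgfra, Olig1, Cnp, Mbp and Gpr17, like 56.4% of the table, as confounded, a mark it does not define. Cnp shares 8912 bases with Dnajc7 on the other strand, and Dnajc7, a co-chaperone gene, had a difference of -0.25 with T/S/Z (adjusted p = 0.0418) beside -0.39 for Cnp. Gpr17, on chromosome 18 from 31942997 to 31949636, lies within Lims2 on the other strand, which differed by -0.36 (adjusted p = 0.0289). Olig1 shares 157 bases with the long noncoding gene Gm15966, which had a mean of 1.04 log2 units in DMSO. Mbp (chromosome 18, 82475146 to 82585637) contains a ribosomal pseudogene. The library protocol keeps the strand, but whether the counting used it is not stated in the sources used here.

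The tested genes most like each member were those with the highest Pearson r over the 12 libraries after the mean of each replicate number was removed. These values describe the 4 group means to a large degree, and no p is given. Pdgfra was most like Nfia (r = 0.994), Bhlhe41 (0.993) and Bmp5 (0.992), and 1357 genes reached 0.9. Olig1 was most like Slc38a3 (0.992), Trp53bp2 (0.99) and Cdc42ep4 (0.987), and Olig2 most like Amigo1 (0.996), Disp1 (0.976) and Id3 (0.975). For Cnp these were Cxcr4 (0.994), Gpd1 (0.994) and Dio3 (0.993). Cspg4 had 66 genes at 0.9 or more, led by Uba1 (0.961), 2900026A02Rik (0.959) and Ubqln4 (0.958). Sox10 had 1, Shank3 (0.927), followed by Zfp341 (0.897) and Spred2 (0.895), and Mbp had 3, Eral1 (0.918), Cep68 (0.909) and Eml4 (0.905).

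Among the members themselves Olig1 was most like Cnp (r = 0.971) and Olig2 (0.942), and Pdgfra had 0.843 to 0.866 with these 3 genes. Cspg4 was most like Sox10 (0.821) and went against Pdgfra (-0.63). Mbp had negative r with Olig1, Olig2, Cnp and Pdgfra, between -0.64 and -0.66. Genes of one library share its depth and scaling, so these r are descriptions over 12 points.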

How the data were processed

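Polyadenylated RNA of 12 astrocyte and 24 microglial libraries was sequenced in separate facilities. The authors processed the reads with OmicSoft Array Studio. The deposited values are log2 of the FPKM after adding 1, scaled to a common 75th percentile (4.73 to 4.74 in astrocytes). The aligner and the annotation release are not given in the sources used here. In the microglial table the gene means of replicates 1 to 3 equal those of replicate 4, an adjustment not described, which leaves some values below 0.

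Genes with at least 1 log2 unit in at least 3 astrocyte libraries were tested with limma 3.58.1 (R 4.3.3; lmFit, eBayes with trend) on the deposited values of the compared groups, with the replicate number as a block since the study's own comparison was paired, 2-sided, with Benjamini-Hochberg adjustment over 13842 genes. Fold changes refer to log2(FPKM + 1) and understate changes of low genes. Same-numbered libraries deviated together in 5 of 18 pairs (r over 0.1, range -0.14 to 0.41), so the numbers were not shown to pair them. Steps between low FPKM values (84.1 to 95.2% of them within 0.15 of a whole multiple) gave the apparent depth. Counts were not recovered and no count test was run. Precision at low levels is limited by depth. The fit was tested on simulated data.

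Members and lists were chosen with earlier results of these data known. Beside the members, the text names the largest called changes of lineage genes for T/S/Z against DMSO and T/S/Z/N against T/S/Z (up to 10 each), the 6 most abundant, the 3 most abundant markers of each list, all tested PDGF and differentiation-brake genes and the 3 genes most like each member. Alternatives were the fit without the block, all 12 libraries in one fit, other pseudocounts, filters, scalings and variances, and leaving out each replicate. Promoters came from RefSeq. Some genes of the lists are counted but not reported here by name.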

Additional observations from a re-analysis of the deposited data

Results flagged for a closer look

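The effect of T/S/Z on Cspg4 differed with and without Nec-1s by -0.59 log2 units (adjusted p = 0.0409 in the limma interaction fit), with +0.47 without and -0.12 with the inhibitor. The calls lost under other settings are given with the report of this gene.

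In microglia, 7 of 48 groups of 4 libraries (8 genes in 6 treatments) held 1 library far from the other 3 by Dixon's criterion. With independent values the criterion marks about 1 in 20 groups. Here the gene means of replicates 1 to 3 equal those of replicate 4, so the values are not independent. That rate therefore does not apply, and the count is not read against it. Olig1 had 2.25 log2 units in replicate 4 of T/S/Z and between 1.63 and 1.71 in the others. Olig2 had 0.624 in replicate 4 of T/5z beside 0.872 to 0.891, and Cspg4 had 2.76 in replicate 4 of Nec-1s beside 2.92 to 2.95. Cnp had 4.53 in replicate 3 of T/5z/N beside 4.43 to 4.44. For Gpr17, replicate 3 was marked in T/S/Z (0.0689), Nec-1s (-0.0009) and T/5z (-0.0096), all close to 0. Replicates 1 and 2 of all 6 treatments had the same value of this gene, 0.0186.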

How the results depend on the processing

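Of the results for single members under other settings, 451 kept their direction and their side of the threshold, 12 changed sign, 16 lost a call and 6 gained one. The changes of sign were small. Leaving out each replicate gave, for Nec-1s against DMSO, -0.165 to 0.0259 for Pdgfra, -0.00425 to 0.235 for Cspg4, -0.112 to 0.0849 for Mbp and -0.0403 to 0.0293 for Cnp. For T/S/Z/N against T/S/Z it gave -0.274 to 0.0117 for Olig1 and -0.13 to 0.0052 for Mbp, for T/S/Z/N against DMSO -0.0995 to 0.0284 for Cspg4, and for the difference of effects -0.138 to 0.118 for Mbp. With each library centred on its median, Cnp was -0.00308 for Nec-1s against DMSO and Cspg4 0.00545 for T/S/Z/N against DMSO. With quantile normalization, Cspg4 was 0.0555 for T/S/Z/N against DMSO and Sox10 0.00496 for T/S/Z/N against Nec-1s.

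With an ordinary variance per gene, 0 members passed in any comparison, and 0, 0, 0 and 1 other lineage genes did for T/S/Z, T/S/Z/N against T/S/Z, against DMSO and against Nec-1s. With 5 added before the log, 1 member passed for T/S/Z and 1 for T/S/Z/N against DMSO, since the fold of Pdgfra shrank, 0 for the difference of effects, and 2, 2, 1 and 2 other lineage genes passed for T/S/Z/N against T/S/Z, DMSO and Nec-1s and for the difference of effects. With 0.1 added, 1 member, Cspg4, passed for T/S/Z/N against T/S/Z, and 7 and 10 other lineage genes against DMSO and Nec-1s. Under either scaling, 1 member passed for T/S/Z/N against DMSO, Pdgfra being at -0.55 and -0.58. With a mean of at least 2 log2 units, which removes Cspg4, 0 members passed the difference of effects, and 2 other lineage genes T/S/Z/N against DMSO.

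Leaving out a replicate gave 2 to 3 members for T/S/Z, 2 for T/S/Z/N against DMSO, 2 to 3 against Nec-1s and 0 for the difference of effects, and 4 to 7 other lineage genes against Nec-1s and 2 to 4 for the difference. Without replicate 1, 2 rather than 5 members had an adjusted p under 0.05 with T/S/Z. Without the replicate block, 0 members passed the difference of effects (Cspg4, adjusted p = 0.0596), and the member counts of the other comparisons did not move. Where no construction is named, the cause was not tested. With 3 libraries a group and 58.7 to 178 units for Gpr17 and Sox10, small changes of these genes could not be resolved at this depth.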
